A study of Arabidopsis thaliana with 51 samples.

Results

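Seedlings of the Arabidopsis thaliana mutant bak1 were set against wild-type (WT) seedlings after 10 h in the peptide Pep2, over all genes tested. The comparison rests on 6 of the 51 arrays of the series, 3 of bak1 and 3 of WT, taken by their labelled genotype, peptide and time. The study exposed several lines to Pep2 or to the bacterial peptide elf18 and read total RNA of whole seedlings on Affymetrix ATH1 arrays. The bak1 seedlings carried the allele bak1-3, the only bak1 allele in the series, and the WT seedlings carried no mutation named in the labels. Both lines grew for 5 to 6 days on agar and a further 5 to 6 days in liquid medium with sucrose, in 12 h of light and 12 h of dark, before 1 µM Pep2 was added. The groups set beside the 10 h arrays are bak1 and WT before treatment (0 h), bak1 and WT after 2 h of Pep2, and the receptor double mutant pepr1-1 pepr2-3 after 10 h of Pep2, each with 3 arrays that the design text calls biological replicates. To sort the 10 h differences, the same double mutant after 2 h of Pep2 was also used. WT and the receptor mutant efr-1 after 10 h of 1 µM elf18 were used likewise, with 3 arrays in each group. No seedlings kept without peptide until 10 h are in the samples used here, so time in culture and Pep2 cannot be told apart within a line, whereas the difference between the lines at 10 h is taken at one time.

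Pep2 is a plant peptide cut from a larger precursor, and cells perceive it through the leucine-rich repeat receptor kinases PEPR1 and PEPR2. BAK1 is a co-receptor kinase that joins such receptors, and also the receptors of flagellin, elongation factor Tu and brassinosteroid, once their ligand is bound. Perception sets off calcium influx, an oxidative burst, kinase cascades and broad transcriptional change, in which defence genes are induced and growth genes are often repressed.

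The values are log2 expression levels per probe set. Array medians lay between 6.05 and 6.14 over the 18 arrays of the lines bak1 and WT described here, and the lowest correlation within a group was 0.985 to 0.992. Of 22810 probe sets, 14568 reached a log2 level of 5 on at least 3 arrays and were tested, and 7828 of these are paired with exactly 1 gene. A probe set can pass this filter through 1 group alone, such as bak1 at 10 h. It then enters the counts of higher calls by being high there. The lowest value, 2.08, is shared by all arrays, and a difference against a group at that level depends on how background was removed. BAK1, PEPR1, PEPR2 and FLS2 are not named in the annotation used here, so the mutant labels were not checked against their transcripts. The arrays hold whole seedlings, and at 10 h probe sets of root and of leaf genes both gave high levels. The root beta-glucosidase PYK10 averaged 14.13 in bak1 and 14.32 in WT, and the photosystem I subunit gene PSAN 12.54 in bak1 and 13.03 in WT. In such bulk RNA, fewer cells of a type and less RNA per cell cannot be told apart.

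After 10 h of Pep2 the lines differed at 2352 probe sets (16.1% of those tested), with 1020 higher in bak1 (7.00%) and 1332 lower (9.14%). A probe set was called at a Benjamini-Hochberg adjusted p under 0.05 in limma, a linear model fitted to all 51 arrays, with at least a 2-fold difference. Of the calls, 292 were at least 4-fold higher and 293 at least 4-fold lower in bak1, and 40 and 16 passed 16-fold. Before treatment the same lines differed at 7 probe sets higher (0.0481%) and 3 lower (0.0206%) in bak1. After 2 h of Pep2 they differed at 92 higher (0.632%) and 33 lower (0.227%). These small counts depend on single arrays: 4 were higher at 0 h without the third WT array and 1 lower without the first WT array of that time, and 19 were lower at 2 h without the second WT array of that time. The median difference over all tested probe sets was 0.01 at 10 h, and the normalisation between arrays sets this centre, so all differences are relative to it.

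**Figure D1:**
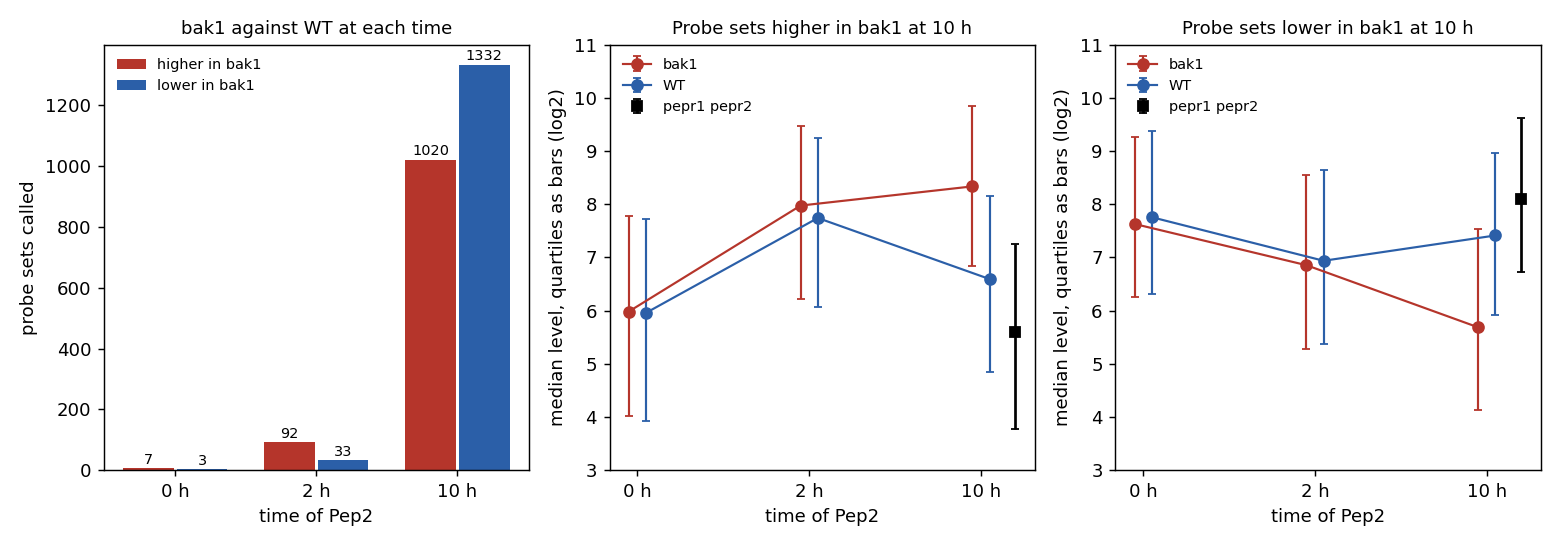
The left panel counts the probe sets called higher or lower in bak1 than in WT at 0, 2 and 10 h of Pep2, and the other panels give the median log2 level (points) and quartiles (bars) of the probe sets called higher or lower at 10 h, in bak1, WT and, at 10 h, pepr1 pepr2. The lines lie close together at 0 and 2 h. At 10 h the 1020 higher probe sets have a median of 8.34 in bak1 and 6.59 in WT, a gap that their choice builds in.

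The difference at 10 h was tested against the difference before treatment in the same model. The change from 0 h to 10 h was more positive in bak1 than in WT for 973 probe sets (6.68%) and more negative for 1218 (8.36%). Between 2 h and 10 h, the difference between the lines moved upward for 984 probe sets (6.75%) and downward for 1321 (9.07%).

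The probe sets called at 10 h were followed on the arrays of the other times. Those arrays entered the pooled spread and the level filter, but not the 10 h means that the calls compare. The 1020 higher probe sets had a median level of 5.98 in bak1 and 5.96 in WT at 0 h, 7.97 in bak1 and 7.74 in WT at 2 h, and 8.34 in bak1 and 6.59 in WT at 10 h. Their median stood at 5.60 in pepr1 pepr2 at 10 h. At 2 h this set stood above its 0 h level in both lines. At 10 h the WT median lay below its 2 h level and the bak1 median did not. The set was chosen on the 10 h arrays, so a gap between the lines at 10 h is built in. The 1332 lower probe sets had a median of 7.63 in bak1 and 7.76 in WT at 0 h, 6.85 in bak1 and 6.94 in WT at 2 h, and 5.69 in bak1 and 7.41 in WT at 10 h, with 8.10 in pepr1 pepr2 at 10 h. For these the 2 h medians lay below the 0 h medians in both lines. At 10 h the WT median was nearer to that of 0 h and the bak1 median lower still, again with a gap that the choice builds in. In 24 of the higher probe sets all 3 WT arrays lay within 0.1 of the lowest value, and in 5 of the lower ones all 3 bak1 arrays did. This count misses probe sets that repeat one low value above 2.08. Examples are AT1G26390 and UGT73C7, at 2.68 and 2.49 on all 3 WT arrays.

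Among single genes, the 20 largest increases in bak1 included 3 berberine bridge enzyme-like oxidases, a subtilase, a calmodulin-like calcium sensor, the precursor of a secreted peptide and a class III peroxidase. AT1G26390, a berberine bridge enzyme-like gene, reached log2 levels of 10.57, 10.80 and 10.14 on the bak1 arrays, against 2.68, 2.68 and 2.68 on the WT arrays. All bak1 arrays lay far above all WT arrays, and the difference was 7.82 ± 0.47 (SE, adjusted p = 1e-16). The 3 WT arrays held the same value, as did the 3 pepr1 pepr2 arrays at 10 h, so the size of this difference rests on the background correction. At 2 h the gene averaged only 3.53 ± 0.34 in bak1 and 2.71 ± 0.04 in WT (SD, n = 3 each), so its level in bak1 belonged to the late sample.

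SBT3.3, a subtilisin-like protease known for a role in immune priming, gave 9.76, 9.32 and 9.53 in bak1, against 4.18, 3.90 and 4.58 in WT, which is 39.9-fold (log2 difference 5.32 ± 0.29, adjusted p = 5.2e-18). The groups did not overlap, and the 2 h means of 5.97 ± 0.31 in bak1 and 4.97 ± 0.25 in WT (SD) differed by 1.00 with an adjusted p of 0.061. AT1G33950, of the AIG1 family of GTP-binding proteins, gave 6.44, 6.43 and 5.79 in bak1, against 2.08 on each WT array (difference 4.14, adjusted p = 1.3e-20). This p uses a spread pooled over all groups, and the SD at 10 h was 0.37 in bak1 and 0.0002 in WT. The gene stood at 2.08 in both lines at 0 h and at 2 h, so the signal in bak1 was seen in no earlier sample. On these arrays it reached log2 5 in bak1 at 10 h only, and could pass the level filter through that group. AT5G19880, a class III peroxidase, showed the same shape, with 6.96, 6.99 and 7.53 in bak1, against 2.31, 2.32 and 2.63 in WT, and with means near the lowest value in both lines at 2 h.

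Other genes were already high at 2 h in both lines. AT1G26380, the berberine bridge enzyme-like oxidase FOX1 of the cyanogenic indole pathway, averaged 11.74 ± 0.27 in bak1 and 10.92 ± 0.31 in WT at 2 h (SD, n = 3 each). At 10 h it gave 11.01, 11.14 and 10.89 in bak1, against 6.15, 6.09 and 6.42 in WT (difference 4.80 ± 0.57, adjusted p = 4.8e-09). The bak1 arrays at 10 h were near their 2 h level and the WT arrays far below theirs. AT1G56060, which encodes a small cysteine-rich transmembrane module protein, followed this course, with 11.34 ± 0.38 in bak1 and 9.68 ± 0.35 in WT at 2 h, and with 10.45, 10.78 and 10.20 in bak1, against 5.40, 5.46 and 6.07 in WT at 10 h. BGLU27, a beta-glucosidase, averaged 9.61 ± 0.20 in bak1 and 9.99 ± 0.32 in WT at 2 h, and gave 9.00, 9.07 and 9.12 in bak1, against 4.77, 5.02 and 5.00 in WT at 10 h.

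AT4G37290 encodes the precursor of PIP2, one of the secreted PIP peptides; PIP1 is perceived by the receptor kinase RLK7 and amplifies immune signalling. AT4G37290 gave 8.62, 9.00 and 8.44 in bak1, against 3.39, 5.07 and 3.45 in WT (difference 4.71 ± 0.44, adjusted p = 2.2e-11). The second WT array stood above the other two and still well below every bak1 array. At 2 h the gene differed by 2.41 (adjusted p = 0.00085). The precursor genes of PIP3 and PIP1 were set beside it after their values were seen, as a description: AT2G23270 (PIP3) differed by 3.85 at 10 h and 2.74 at 2 h, and AT4G28460 (PIP1) by 2.71 at 10 h and 1.36 at 2 h.

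CML37, a calmodulin-like calcium sensor, was the one named gene with a 2 h increase above 5. It gave 7.07, 6.92 and 7.07 in bak1, against 2.08, 2.12 and 2.09 in WT at 10 h, and 7.32, 7.04 and 7.33 in bak1, against 2.13, 2.13 and 2.27 in WT at 2 h. WT stayed near the lowest value at both times, and the differences were 5.05 at 2 h (adjusted p = 1.1e-09) and 4.93 at 10 h (adjusted p = 2.1e-11). Before treatment both lines stood near 2.08. CML38, a calmodulin-like gene linked to wounding and low oxygen, was also called at both times, by 1.94 at 2 h and 2.27 at 10 h.

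The remaining members of the 20 largest increases were AT4G03450 (ankyrin repeats, 5.60), AT5G44990 (a glutathione S-transferase family protein, 5.52), AT1G68620 (a carboxylesterase-type hydrolase, 5.38), AT3G61390 (a U-box protein, 5.36), BGLU45 (a monolignol glucosidase, 4.68), AT5G13200 (a GRAM-domain protein, 4.58), AT2G32190 (a cysteine-rich transmembrane module protein, 4.43), AT1G26410 (berberine bridge enzyme-like, 4.43), AT1G44130 (an aspartyl protease, 4.35), AT2G32140 (a TIR-domain protein, 4.17) and AT1G24140 (a matrix metalloproteinase, 3.91). In each of these 11 genes every bak1 array exceeded every WT array, which follows largely from choosing them by this difference on the same arrays.

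**Figure D2:**
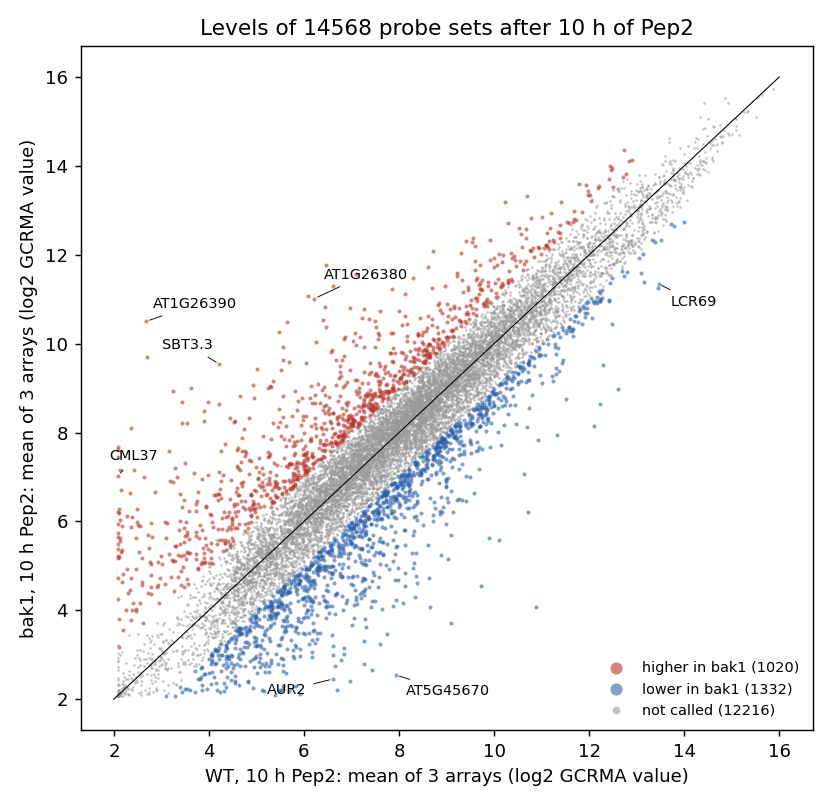
Each point is a probe set, with its mean log2 level over 3 WT arrays on the horizontal axis and over 3 bak1 arrays on the vertical axis, after 10 h of Pep2, and the line marks equal levels. The 1020 red points were called higher and the 1332 blue points lower in bak1, and the labelled AT1G26390 lies farthest above the line, at 10.50 in bak1 and 2.68 in WT.

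The 20 largest decreases in bak1 included 4 GDSL esterase/lipases, a family of secreted hydrolases, and 2 thaumatin-like proteins, a subtilase and a mitotic kinase. AT5G45670 gave 2.08, 2.79 and 2.76 in bak1, against 8.03, 8.04 and 7.74 in WT (difference -5.39 ± 0.16, adjusted p = 1.6e-26). Its 2 h means were 6.78 ± 0.13 in bak1 and 7.05 ± 0.12 in WT (SD, n = 3 each). The groups were far apart at 10 h only. AT3G16370 gave 5.04, 7.02 and 6.57 in bak1, against 10.73, 10.70 and 10.70 in WT (difference -4.50 ± 0.24, adjusted p = 3.3e-18). The first bak1 array was the lowest, and the highest bak1 array still lay below all WT arrays. AT5G45950 fell by 4.77 and AT4G18970 by 4.06. AT4G01130, a further GDSL gene named after its values were seen, was also called lower.

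AUR2, an Aurora kinase of mitosis, gave 2.36, 2.69 and 2.31 in bak1, against 6.55, 6.92 and 6.38 in WT (difference -4.16 ± 0.25, adjusted p = 1.5e-16). At 2 h its means were 4.62 ± 0.26 in bak1 and 4.37 ± 0.71 in WT, both below the 0 h means of 5.98 ± 0.15 in bak1 and 6.42 ± 0.29 in WT. WT at 10 h stood near its 0 h level and bak1 at 10 h below its 2 h level. SBT1.3, a subtilase, gave 5.01, 5.36 and 5.09 in bak1, against 9.10, 8.73 and 9.23 in WT (difference -3.87 ± 0.20, adjusted p = 1.9e-18).

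Of the other decreases, ATLP-1 (a thaumatin-like protein) fell by 3.72 and its relative AT1G73620 by 3.68, AT3G53190 (a pectate lyase) by 3.56, AT2G10940 (a lipid transfer protein family member) by 4.26, MSRB6 (a methionine sulfoxide reductase) by 3.78, AT3G05600 (an epoxide hydrolase-type protein) by 3.80, AT5G48360 (a formin) by 3.50 and AT1G09750 (the apoplastic aspartyl protease AED3) by 3.40. AT2G33850, AT4G29030, AT5G57760, AT4G02800, AT3G02640 and AT5G16030 complete the 20 and fell by 4.55, 4.47, 4.34, 3.94, 3.78 and 3.70. In all 20, every bak1 array lay below every WT array, which follows largely from choosing them by this difference on the same arrays. None of the 20 was called at 2 h, where few of all tested probe sets were called (0.632% higher and 0.227% lower).

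**Figure D3:**
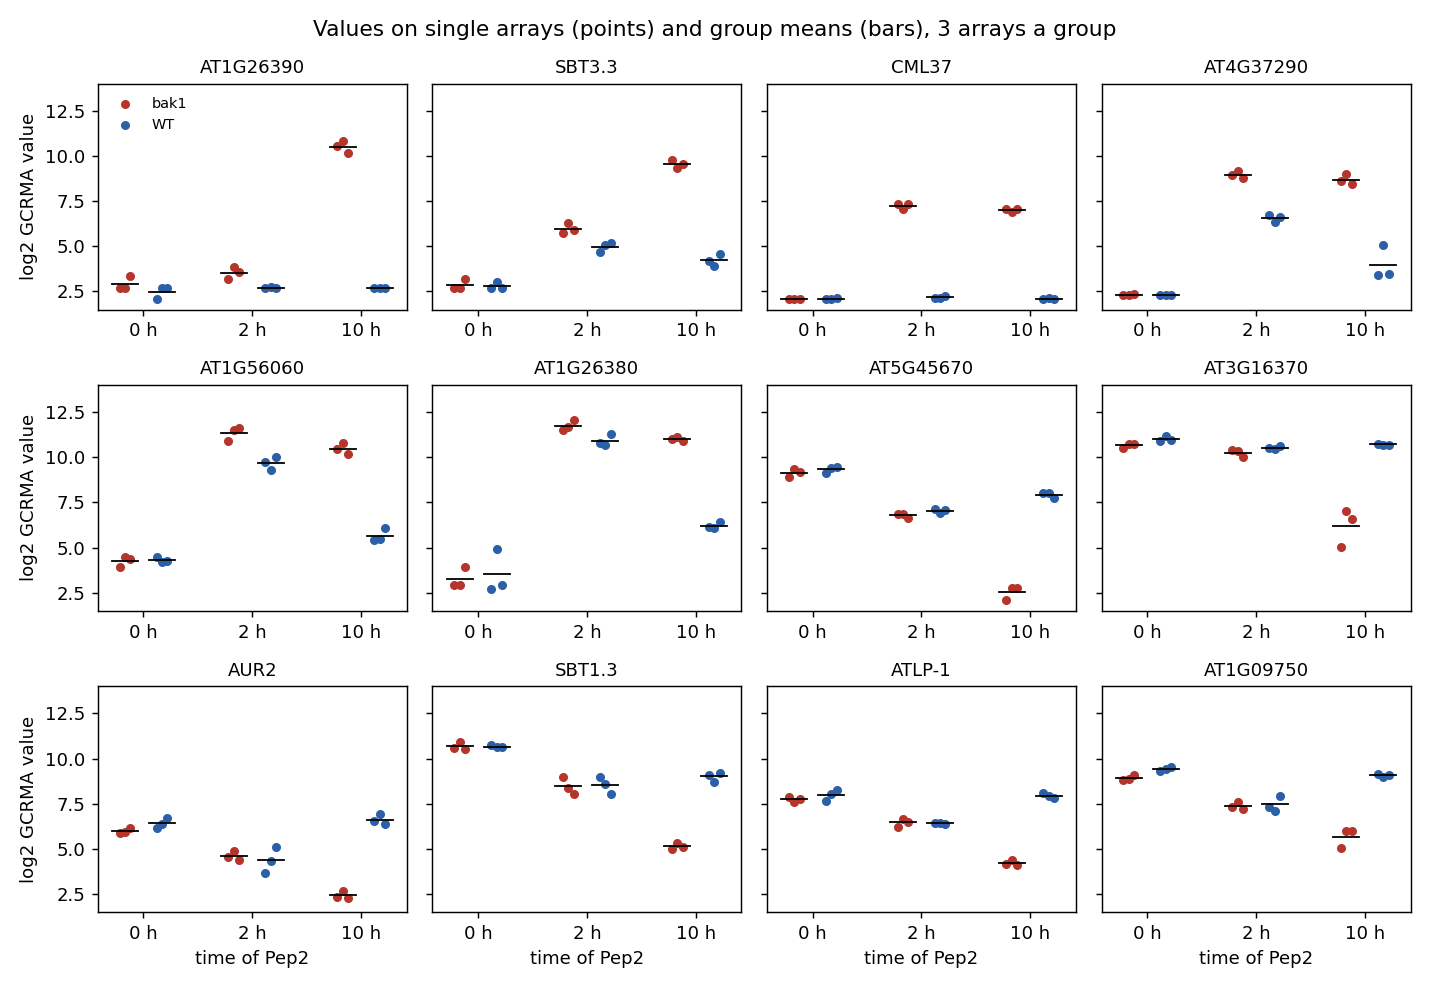
Points are log2 levels on single arrays and bars are means of 3 arrays, for 12 genes in bak1 (red) and WT (blue) at 0, 2 and 10 h of Pep2. CML37 differs between the lines at both Pep2 times, AT1G26380 is high in both at 2 h and at 10 h near 11 in bak1 only, and AT5G45670 is lower in bak1 at 10 h only.

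Genes were then grouped by 29 pathway and marker lists, of whose 443 genes 100 could be measured. The berberine bridge enzyme-like oxidases had 7 of 11 measured members higher in bak1 and none lower, with a median difference of 1.84 against 0.01 over all tested probe sets, where 7.00% were called higher. Besides the genes above they include AT1G30700 (2.97), AT1G26420 (2.68) and AT4G20830 (1.84), the last of which oxidises cell wall oligogalacturonides and stood at 12.85, 12.97 and 12.71 in bak1, against 11.12, 10.84 and 11.06 in WT. Probe sets of near-identical family members can share target RNA, which was not tested here.

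Of the genes that carry and restrain receptor output, 2 of 4 were higher, beside 7.00% of all tested probe sets. PUB24 and PUB23, U-box ubiquitin ligases that dampen pattern-triggered immunity, differed by 2.38 (adjusted p = 3.5e-10) and 1.24 (adjusted p = 7.2e-06). PUB24 gave 7.61, 7.23 and 7.46 in bak1, against 4.91, 5.13 and 5.12 in WT, without overlap. The cytoplasmic kinase BIK1, a direct substrate of receptor complexes, differed by 0.90 (adjusted p = 1.9e-05), under the 2-fold minimum, and PUB22 by 0.15 (adjusted p = 0.45). Among cell surface receptors, none of 3 was called. The elf18 receptor gene EFR stood at 6.35, 6.19 and 6.55 in bak1, against 5.67, 5.30 and 5.62 in WT, a difference of 0.83 (adjusted p = 0.0018) below the 2-fold minimum.

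Salicylate-linked genes had 2 of 3 higher, beside the same 7.00%. GRX480, a glutaredoxin that binds TGA transcription factors, gave 7.46, 7.62 and 7.65 in bak1, against 4.37, 4.22 and 5.71 in WT (difference 2.81, adjusted p = 8.9e-09). UGT76B1, which glucosylates salicylate and N-hydroxypipecolate, gave 12.44, 12.23 and 12.70 in bak1, against 10.36, 10.56 and 10.79 in WT (difference 1.89, adjusted p = 1.8e-10). The third WT array of GRX480 lay above the other WT arrays, and neither gene overlapped between the lines. The lipase-like SAG101, which works with EDS1, differed by 0.25 (adjusted p = 0.43).

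Defensins and pathogenesis-related proteins went both ways, with 3 of 9 higher, 2 lower and a median of 0.04. Over all tested probe sets 7.00% were higher and 9.14% lower. LCR67 (the defensin PDF1.1) differed by 2.96 (adjusted p = 0.0091), and the chitinase gene CHI by 2.72, with 12.18, 12.01 and 11.91 in bak1, against 9.78, 9.19 and 8.96 in WT. PDF1.4 differed by 1.17 (adjusted p = 0.047), and its call was lost without the first or second bak1 array or any one of the WT arrays (adjusted p = 0.066 to 0.13). LCR69 (PDF2.2) gave 11.33, 11.44 and 11.27 in bak1, against 13.37, 13.36 and 13.65 in WT (difference -2.12, adjusted p = 7.9e-16), and LCR68 (PDF2.3) fell by 1.22. PDF1.2b, a marker of joint jasmonate and ethylene signalling, differed by -1.03 (adjusted p = 0.13), with 12.64, 12.74 and 11.63 in bak1, against 13.30, 13.35 and 13.44 in WT.

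Of 12 measured class III peroxidases on the list, 4 were higher and 1 lower, beside backgrounds of 7.00% and 9.14%, and the list does not hold AT5G19880 above. AT1G14550 differed by 2.51, AT5G39580 by 1.47, PRX52 by 1.38 and AT5G06730 by 1.03, and the root peroxidase AT5G17820 fell by 1.07. AT5G06730 lost its call without the first or second bak1 array or the second or the third WT array (adjusted p = 0.056 to 0.065), and AT5G17820 came to -0.95 to -0.97, under 2-fold, without the third bak1 array or the first or second WT array. Of the WRKY transcription factors, WRKY6 differed by 1.87, with 9.89, 9.64 and 9.82 in bak1, against 7.77, 8.18 and 7.78 in WT, while WRKY22 and WRKY53 differed by 0.76 (adjusted p = 0.063) and 0.73 (adjusted p = 0.14). One of 7 measured kinases of the leucine-rich repeat cluster, AT1G51890, was higher (1.96). CCR2, a cinnamoyl-CoA reductase of lignin synthesis, was higher by 2.62, with 8.83, 8.96 and 8.78 in bak1, against 6.53, 6.08 and 6.10 in WT. CCR2 was the only gene of its list that was measured. The transcription factor gene BZIP60 of the endoplasmic reticulum stress response was higher by 1.06, GSTU25 (a glutathione S-transferase) by 2.49, and the nitrate transporter gene AT3G21670 by 1.32. Each of these was 1 of 2 measured members of its list. The other members, ATERDJ3B (0.25), GSTU22 (0.64) and NRT2.5 (-0.01, near the lowest value in both lines), were not called. Of 9 measured GSTU genes 1 was higher and 2 lower. The call of AT3G21670 was lost without the second bak1 array (adjusted p = 0.05) or the third WT array (adjusted p = 0.078).

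**Figure D4:**
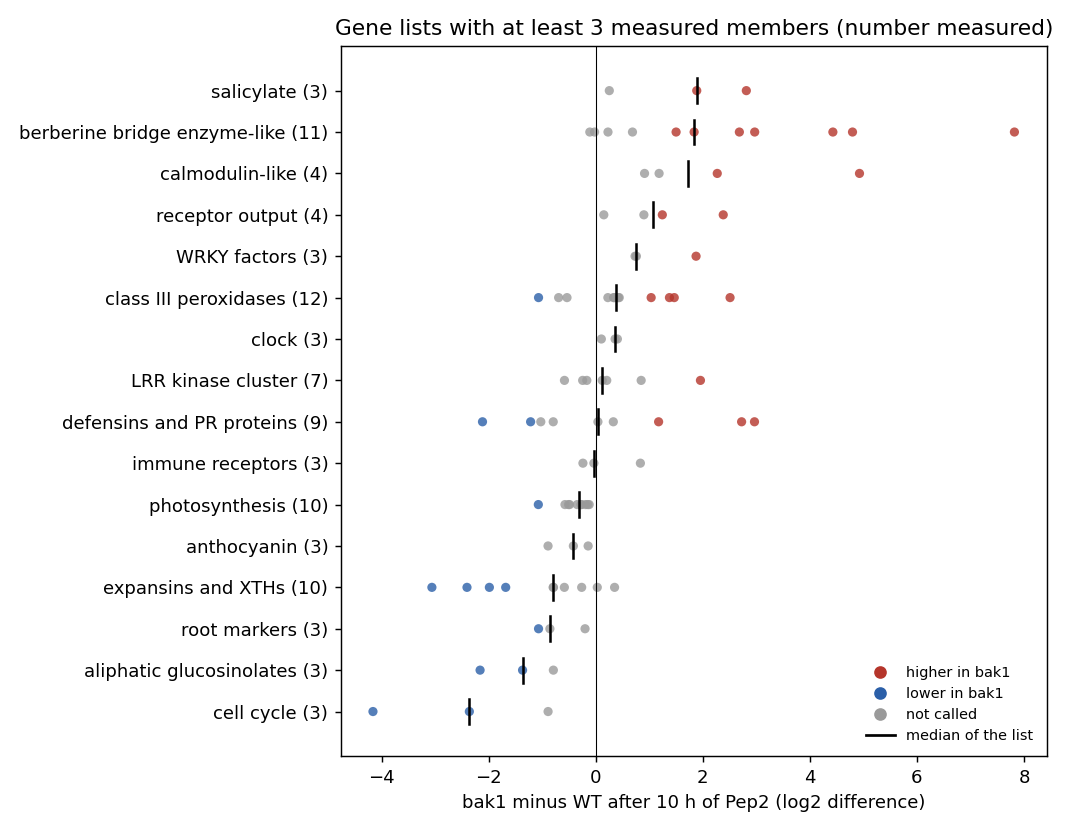
Each point is a measured gene of a list with at least 3 measured members, placed by the log2 difference of bak1 minus WT after 10 h of Pep2, with the number measured in brackets and the list median as a bar. The berberine bridge enzyme-like list has 7 of 11 genes to the right, and the expansin and XTH list 4 of 10 called lower.

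Growth-linked lists had calls in the lower direction. In a list of expansins and xyloglucan endotransglucosylase/hydrolases (XTHs), which loosen and remodel cell walls, 4 of 10 measured members were lower, with a median of -0.79 beside a background of 9.14% lower. None of these 10 was higher, but XTH18, which the list does not hold, was (1.19). XTH20 gave 5.04, 5.90 and 4.94 in bak1, against 8.79, 8.32 and 7.96 in WT (difference -3.06, adjusted p = 1.5e-10), and XTH19, XTH16 and EXPA15 fell by 2.41, 1.99 and 1.68. All 3 bak1 arrays of XTH20 lay below the WT arrays, and at 2 h both lines stood near 9.1. Of 3 cell cycle genes, AUR2 and AUR1 (-2.36) were lower, and PRL, the replication helicase subunit MCM7, fell short of 2-fold at -0.89 (adjusted p = 5.8e-07).

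In the synthesis of aliphatic glucosinolates, the methionine-derived defence compounds of the cabbage family, 2 of 3 genes were lower. Of all tested probe sets 9.14% were lower. BCAT4, which starts the chain elongation of methionine, gave 5.61, 5.74 and 5.91 in bak1, against 8.12, 8.25 and 7.38 in WT (difference -2.16, adjusted p = 6.6e-09). GSTU20, linked to the core pathway, fell by 1.37. Of 10 nuclear photosynthesis genes only NdhL, a subunit of the chloroplast NDH complex, was called, at -1.07 (-0.96, under 2-fold, without the third WT array). This share of calls is close to that 9.14%, and the list median was -0.31. Of 3 anthocyanin genes none was called, and DFR, the dihydroflavonol reductase, varied from 4.01 to 6.45 among the bak1 arrays.

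Values that could mark a shift of tissue or of daily time were taken beside these results. Of 3 measured root markers 1 was lower, beside 9.14% of all tested probe sets. The differences were -1.07 (AT5G17820), -0.86 (EXPA7, adjusted p = 0.0022) and -0.20 (PYK10, adjusted p = 0.18), and their part in the other differences was not tested. Of the clock-linked genes COR27, GI and AT4G33980 none was called, with differences of 0.10 ± 0.21, 0.40 ± 0.17 and 0.36 ± 0.17 (SE). COR27 gave 8.59, 8.22 and 8.36 in bak1 and 8.23, 8.27 and 8.36 in WT at 10 h, and its means were 2.13 in bak1 and 2.11 in WT at 0 h, so this gene differed far more between the times than between the lines. No guard cell, jasmonate, indole defence, cysteine-rich kinase, brassinosteroid, cell death or PROPEP gene of the lists could be measured.

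Gene families were also counted by the letters of their symbols, a choice made after the values were seen, so the counts are a description, to be read beside 7.00% called higher and 9.14% called lower over all tested probe sets. Of 35 UDP-glycosyltransferases 8 were higher and none lower, led by UGT73D1 (3.80), UGT73C7 (3.79) and UGT73B4 (3.28), which attach sugars to small molecules. UGT73D1 gave 9.19, 9.06 and 9.19 in bak1, against 4.76, 5.21 and 6.07 in WT. On the bak1 and WT arrays at 0, 2 and 10 h of Pep2, UGT73C7 reached log2 5 in bak1 at 10 h only. It could thus enter the count of 8 through the group where it is high. Of 7 calmodulin-like genes 3 were higher, CML37, CML38 and CML43 (1.25). Of 5 subtilases 2 were higher, SBT3.3 and SBT3.5 (3.12), and 2 lower, SBT1.3 and SBT4.12 (-2.04). Of 11 family 1 beta-glucosidases 3 were higher, BGLU45, BGLU27 and BGLU46 (1.91), and BGLU44 was lower (-1.48).

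All 5 measured family 9 endoglucanases, which act on cellulose, were lower in bak1, with a median of -2.68, where 9.14% of all tested probe sets were lower. GH9B8 gave 2.36, 2.13 and 2.08 in bak1, against 5.28, 5.09 and 5.08 in WT, and GH9C2, GH9B13, GH9B7 and GH9C1 fell by 2.76, 2.68, 1.21 and 1.08. Of 8 XTH genes 5 were lower, and XTH18 was higher. Of 5 beta-tubulins 3 were lower, with TUB1 at 5.15, 5.12 and 5.12 in bak1, against 7.35, 7.38 and 7.39 in WT. Of 8 genes for RALF-like growth peptides 3 were lower, with RALFL34 at 7.41, 7.92 and 7.72 in bak1, against 10.03, 9.82 and 9.87 in WT. In each of GH9B8, TUB1 and RALFL34 the lines were apart on all arrays. Of 7 RPL and 7 RPS ribosomal genes and 12 UBP deubiquitinases none was called.

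Neighbouring genes called in the same direction were counted, in the gene order of RefSeq TAIR10.1. Of 2476 neighbouring pairs with both genes tested, both were higher in 22 and both lower in 27, while 303 had at least 1 higher and 400 at least 1 lower. The share of such pairs was not tested against the overall call rate (7.00% of tested probe sets higher, 9.14% lower), so nothing is read from it about neighbours. Among the pairs with both higher, chosen for naming after their values were seen, were AT1G26380 and AT1G26390, AT1G26410 and AT1G26420, BGLU45 and BGLU46, UGT73B5 and UGT73B4, and UGT73D1 and UGT73C7.

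The 10 h differences were next sorted by peptide perception on arrays outside the groups compared at 10 h. These arrays share the pooled spread and the level filter with that comparison. At 2 h of Pep2, 1684 probe sets stood higher in WT than in pepr1 pepr2 (11.6%) and 1547 lower (10.6%). Of the 1684, 640 were higher in bak1 than in WT at 10 h, which is 38.0% of this set and 62.7% of all higher calls, and 23 were lower, beside 7.00% higher and 9.14% lower over all tested probe sets. Their median difference between bak1 and WT was 0.78 at 10 h, against 0.01 over all tested probe sets. Of the 1547, 644 were lower in bak1 at 10 h, 41.6% of the set and 48.3% of all lower calls, beside the same 9.14%, and 8 were higher, with a median of -0.81. Probe sets that were higher in WT than in pepr1 pepr2 at 2 h thus made up most of the higher calls in bak1 at 10 h.

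**Figure D5:**
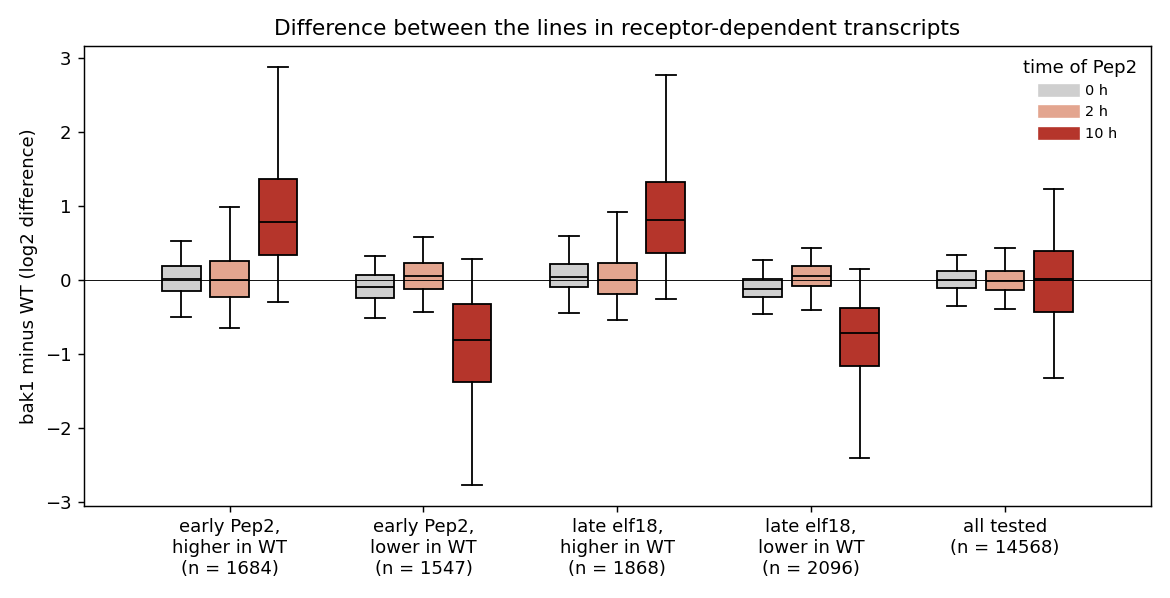
Boxes show the quartiles and median, and whiskers percentiles 5 to 95, of the log2 difference of bak1 minus WT at 0, 2 and 10 h of Pep2, for probe sets called between WT and pepr1 pepr2 after 2 h of Pep2 (early Pep2), between WT and efr after 10 h of elf18 (late elf18), and for all tested. At 10 h the medians of the receptor-dependent sets are 0.78, -0.81, 0.81 and -0.72, and that of all tested probe sets is 0.01, while the 2 h boxes of the early Pep2 sets share WT arrays with the choice of those sets.

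The same sorting was made with another peptide. Between WT and the receptor mutant efr-1 after 10 h of elf18, 1868 probe sets were higher in WT (12.8%) and 2096 lower (14.4%). Of the 1868, 719 were higher in bak1 than in WT after 10 h of Pep2, 38.5% of the set and 70.5% of all higher calls, and 16 were lower, with a median difference of 0.81, again beside 7.00% of all tested probe sets called higher. Of the 2096, 674 were lower in bak1, 32.2% of the set and 50.6% of all lower calls, and 10 were higher, with a median of -0.72, beside 9.14% called lower. At 2 h of Pep2 the median difference between the lines was 0.00 in the higher and 0.05 in the lower of these elf18 sets. The elf18 and Pep2 sets were not made disjoint, so they are not separate evidence.

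Seedlings without the Pep2 receptors stood beside both lines at 10 h. Against WT, 516 probe sets were higher in pepr1 pepr2 (3.54%) and 674 lower (4.63%), a comparison that uses the same WT arrays, so only levels are set side by side. SBT3.3 averaged 9.54 in bak1, 2.42 in pepr1 pepr2 and 4.22 in WT. UGT76B1 averaged 12.46 in bak1, 8.35 in pepr1 pepr2 and 10.57 in WT, and BCAT4 5.75 in bak1, 10.19 in pepr1 pepr2 and 7.92 in WT. In these 3 genes the WT level lay between those of the mutants, whereas for AT1G26390 WT and pepr1 pepr2 both stood at 2.68, and for AT5G45670 WT averaged 7.94 and pepr1 pepr2 7.98. Against its own 0 h group, bak1 had 2196 probe sets higher (15.1%) and 2467 lower (16.9%) at 10 h, and WT had 1248 higher (8.57%) and 1289 lower (8.85%).

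The few differences present earlier were traced to 10 h. Of the 92 probe sets higher in bak1 at 2 h, 55 were also higher at 10 h (59.8%) and 1 was lower. Over all tested probe sets 7.00% were higher and 9.14% lower at 10 h. Of the 33 lower at 2 h, 7 were lower and 6 higher at 10 h, beside the same shares. AT5G46295 had the second largest 2 h increase among named genes, with 8.31, 8.08 and 7.81 in bak1, against 5.03, 2.36 and 4.83 in WT (difference 3.99, adjusted p = 1.5e-07). At 10 h it stood at 3.66, 3.32 and 2.23 in bak1 and about 2.2 on each WT array, and was not called (adjusted p = 0.093).

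PRX52, AT1G80450 and AT2G26380 were called in opposite directions at 2 h and 10 h, and were named for that after their values were seen. PRX52, a peroxidase linked to lignin, gave 6.11, 6.89 and 6.75 in bak1, against 7.74, 8.57 and 7.45 in WT at 2 h, and 12.46, 12.35 and 12.68 in bak1, against 11.22, 10.75 and 11.38 in WT at 10 h. The lines did not overlap at either time, with differences of -1.34 and 1.38. AT1G80450, a VQ-motif protein, differed by -1.16 at 2 h and 1.91 at 10 h, and AT2G26380, a leucine-rich repeat protein, by -1.16 and 1.62.

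AT5G24240, a phosphatidylinositol 4-kinase family gene, was lower in bak1 at every time. It gave 2.41, 2.74 and 2.41 in bak1, against 5.41, 5.96 and 4.39 in WT at 0 h (adjusted p = 0.12). It gave 3.35, 2.81 and 2.81 in bak1, against 9.28, 7.42 and 9.01 in WT at 2 h (adjusted p = 1.3e-06), and 3.52, 3.70 and 3.11 in bak1, against 6.29, 6.52 and 6.97 in WT at 10 h (adjusted p = 0.00021). The lines did not overlap at any time, and the mean in pepr1 pepr2 at 10 h was 2.47. AT4G33440, the gene next to BAK1 in RefSeq TAIR10.1, was higher in bak1 by 1.07 at 0 h (adjusted p = 0.0028) and by 1.24 at 2 h (adjusted p = 3.9e-05), and differed by 0.48 at 10 h, below the 2-fold minimum. Of the 7 probe sets higher at 0 h, 2 were higher at 10 h, beside 7.00% of all tested probe sets. Among the 0 h calls, the low-oxygen response regulator AT3G10040 (HRA1) and AT5G66985 were higher in bak1 by 1.64 and 2.25, and they differed by 0.12 (adjusted p = 0.75) and -0.71 (adjusted p = 0.056) at 10 h.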

How the data were processed

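The deposited values are log2 expression per probe set, made by the authors with GCRMA per the submitters' processing notes (which corrects background by probe sequence and normalises between arrays), in a version not given in the sources used here. All arrays share the lowest value, 2.08, and 27.4% of values lie within 0.1 of it, so differences against that level rest on the background correction. No detection calls were used, and the number of arrays limits the precision. Where nothing says that the biological replicates came from separate cultures, p-values measure only the spread between these samples. That spread is pooled over 17 groups. For a gene at one low value in many groups, it can be smaller than the spread within a group above that value.

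Probe sets at log2 5 or more on at least 3 arrays were fitted with limma 3.58.1 in R 4.3.3, one mean for each of 17 groups over 51 arrays (residual degrees of freedom 34, prior 3.84). Benjamini-Hochberg adjustment ran within each of 10 contrasts, and calls needed an adjusted p under 0.05 and 2-fold. Of 22810 probe sets, 64 are controls, and of the others 13513 are paired with 1 gene, 503 with several and 8730 with none in the annotation used, so only the first were named. RefSeq TAIR10.1 served for names and gene order alone, and no positions or sequences are printed.

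Named genes are the 20 largest increases and decreases among the calls, up to 6 members of each list by size of difference, the 6 largest each way in every other contrast, and BIK1 and EFR, with 1 probe set per gene (the brightest over all arrays). Members, lists and contrasts were chosen with earlier results of these data known, and families, neighbouring pairs, PIP precursors, the GDSL gene AT4G01130 and the genes with opposite signs at 2 h and 10 h were named outside this rule, after their values were seen. No list was tested as a set. Roles of gene products are general knowledge. The procedure was tested on simulated data. Figures were drawn with matplotlib 3.10.9 (Python 3.11.15).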

Additional observations from a re-analysis of the deposited data

Results flagged for a closer look

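The first results listed here are differences between the lines in how they changed over time, tested in the same limma fit. From 0 h to 10 h of Pep2, 973 probe sets changed more positively and 1218 more negatively in bak1 than in WT. From 2 h to 10 h, the difference between bak1 and WT moved upward for 984 probe sets and downward for 1321.

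In 3 named genes the difference between the lines had opposite signs at 2 h and at 10 h, each past the threshold. It moved by 3.07 for AT1G80450 (adjusted p = 1.2e-07), by 2.78 for AT2G26380 (adjusted p = 1.9e-11) and by 2.71 for PRX52 (adjusted p = 5.5e-06), from lower in bak1 at 2 h to higher in bak1 at 10 h. These genes were chosen on the same arrays by calls at both times and in the change itself. A large change with a small p is therefore built in. At 10 h AT2G26380 gave 4.15, 3.69 and 4.17 in bak1, against 2.98, 2.08 and 2.09 in WT, where it lay close to the lowest array value.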

How the results depend on the processing

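The 10 h counts stayed within 1.5 times of 1020 higher and 1332 lower under every alternative except no fold minimum, which gave 3953 and 4071. That setting also gave 173 and 109 at 2 h, 2545 and 2838 for the change from 0 h, and 2994 and 3169 for the change from 2 h. The counts at 0 h and 2 h were small and moved more. A fit of only the groups compared gave 0 higher and 0 lower at 0 h (limma, with 1315 probe sets at an unadjusted p under 0.05), and 52 and 9 at 2 h. Quantile normalisation and median centring each gave 0 lower at 0 h, array weights gave 14 and 15 at 0 h, and a filter at log2 7 gave 21 lower at 2 h. The causes were not tested.

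Leaving out each array in turn gave 981 to 1074 higher and 1248 to 1424 lower at 10 h, 909 to 1033 and 1134 to 1328 for the change from 0 h, and 926 to 1024 and 1248 to 1403 for the change from 2 h. At 0 h it gave 4 to 8 higher and 1 to 4 lower, and at 2 h 75 to 96 and 19 to 36. Same-numbered arrays of the lines had residual correlations of -0.0773, 0.121 and 0.181 at 10 h, and of 0.277, -0.0482 and 0.0857 at 2 h. Differently numbered arrays were not set beside them, so whether the numbers pair the samples was not tested. With the replicate number as a block the 10 h counts were 1022 and 1334, and 11 probe sets were higher at 0 h. Keeping only probe sets with both means at log2 4 or more, an alternative chosen after seeing the data, left 859 higher and 1039 lower.

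Of 74 named genes followed over 15 settings none changed sign. Apart from EFR and BIK1 these were genes called at 10 h on the same arrays, so the kept sign follows largely from their choice. PDF1.4, AT5G06730, AT3G21670, AT5G17820 and NdhL lost their call in some settings, with PDF1.4 at an adjusted p of 0.08 without the low-value filter and 0.052 after quantile normalisation. EFR and BIK1 were called only with no fold minimum.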
